A study of Mus musculus with 16 samples.

Results

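The genes described here are 44 markers of T cells, cytotoxic lymphocytes and natural killer (NK) cells, listed by symbol and followed through mouse liver tumours treated with cabozantinib, an anti-PD1 antibody or both. Of these, 40 were present by symbol among the 17097 genes that the probe sets of the deposited table name, and Lck, Tcf7, Il2rg and Il7r were not analysed here. For 12 of the 40 genes several probe sets were present, and the brightest on average was used. The genes were divided by role into T cell receptor and signalling genes (16 of 17 present), killing and effector genes (11 of 11), NK receptors (4 of 4), lineage factors (3 of 4), IL2 family receptors and regulatory genes (4 of 6) and homing receptors (2 of 2).

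The tumours grew from Hepa1-6 cells, an established mouse hepatoma line, mixed with 50% Matrigel and placed under the skin of the flank of male C57BL/6 mice aged 5 weeks. Treatment was assigned at random once tumours measured 200 to 300 mm3, and tumours were taken at day 14 and stored frozen. Combination mice (n = 4) received daily oral cabozantinib at 30 mg/kg together with J43, a hamster antibody against mouse PD1. Cabozantinib mice (n = 5) received the same inhibitor alone, and the labels do not say whether they also received the control antibody. Anti-PD1 mice (n = 3) received J43 at 10 mg/kg by injection into the abdomen every 3 days for 5 doses. Placebo mice (n = 4) received hamster IgG at that dose and schedule. A single cell line and a single mouse strain were used throughout, and the tumour lay outside the liver.

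T cells recognise antigen through a receptor whose CD3 and zeta chains pass the signal to the kinases Lck and Zap70 and the adaptor Lat. CD8 and CD4 are the coreceptors that mark cytotoxic and helper lineages. Cytotoxic T cells and NK cells kill with perforin, granzymes and Fas ligand, and secrete interferon gamma. The receptor PD1 on activated T cells restrains receptor signalling when it binds its ligands, and antibodies against it release that restraint. Cabozantinib is an oral inhibitor of several receptor tyrosine kinases, among them MET, AXL and the VEGF receptors.

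Promoter windows of 300 bases, which run from upstream of each gene start to just past it, were taken from RefSeq on the mouse build GRCm38.p6, where 29 of the 40 genes had at least 1 window and 35 windows were found in all. Both strands were searched for short strings that stand for factor families of lymphocytes. The RUNX strings TGTGGT and TGCGGT occurred in 57.1% of the 35 windows and 22.4% of all 32851 windows. The ETS string AGGAAG occurred in 54.3% and 35.4%, and the T-box string GGTGTGA in 8.57% and 3.98%. The NFAT string GGAAAA, which shares GGAA with the ETS string, occurred in 11.4% and 23.4%, and the AP-1 string TGANTCA in 8.57% and 7.81%. Some genes contributed several windows, of which those of Ncr1 overlap each other, so the windows are not independent, and a match describes letters only. Windows of 4 genes that differed with the antibody in the comparison below are shown, with RUNX, ETS and T-box matches in capitals. The Gzmk window, at chr13:113180916-113181215 on the minus strand, has the T-box string and no RUNX or ETS match. The Cst7 window, at chr2:150570165-150570464 on the plus strand, has 1 RUNX and 1 ETS match. Cxcr3, at chrX:101734098-101734397 on the minus strand, has 2 of each, and Cd5, at chr19:10738925-10739224 on the minus strand, has 1 RUNX and 2 ETS matches.
Gzmk: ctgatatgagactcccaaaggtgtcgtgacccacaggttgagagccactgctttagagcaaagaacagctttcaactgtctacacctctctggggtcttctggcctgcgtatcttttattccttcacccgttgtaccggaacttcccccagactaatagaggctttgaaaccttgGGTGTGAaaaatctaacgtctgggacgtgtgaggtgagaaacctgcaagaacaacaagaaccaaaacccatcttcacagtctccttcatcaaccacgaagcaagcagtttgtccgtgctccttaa
Cst7: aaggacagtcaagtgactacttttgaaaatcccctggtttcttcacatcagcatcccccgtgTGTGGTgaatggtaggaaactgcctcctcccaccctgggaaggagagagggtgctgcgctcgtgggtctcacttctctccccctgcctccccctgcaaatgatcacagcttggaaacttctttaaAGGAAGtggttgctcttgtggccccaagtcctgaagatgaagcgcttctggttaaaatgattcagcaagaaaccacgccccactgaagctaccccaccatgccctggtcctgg
Cxcr3: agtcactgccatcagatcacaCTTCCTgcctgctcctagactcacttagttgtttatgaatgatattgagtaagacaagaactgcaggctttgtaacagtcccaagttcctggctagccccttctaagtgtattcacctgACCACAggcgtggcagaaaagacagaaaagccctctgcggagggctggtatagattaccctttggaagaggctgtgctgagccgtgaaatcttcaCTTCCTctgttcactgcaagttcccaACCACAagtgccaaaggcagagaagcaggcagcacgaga
Cd5: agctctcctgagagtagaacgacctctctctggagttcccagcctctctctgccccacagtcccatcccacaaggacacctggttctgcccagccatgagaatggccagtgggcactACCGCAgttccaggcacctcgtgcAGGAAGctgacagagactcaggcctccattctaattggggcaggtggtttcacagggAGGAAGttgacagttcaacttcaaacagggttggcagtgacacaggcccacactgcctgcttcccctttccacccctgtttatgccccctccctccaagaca

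Expression was measured on Affymetrix whole-genome mouse arrays, 1 per tumour, and values are log2 signals in which each unit is a factor of 2. Array medians lay between 4.92 and 5.13, and the lowest of them was used as a yardstick for dim genes. The mean signal of 36 of the 40 genes was at or above it, and those of Klrb1c, Ncr1, Il2ra and Foxp3 were below it. Signals of different genes come from different probes and are not set against each other. The labels do not say which animals shared a cage or litter, and p-values measure the spread between these 16 tumours. In whole tumours, fewer cells of a type and less RNA per cell cannot be told apart. Skeletal muscle genes were highest in Combination replicate 4, Cabozantinib replicate 4 and Anti-PD1 replicate 2, the 3 tumours called muscle-high below, and Cabozantinib replicate 3 came next. The hepatoma gene Alb, which encodes albumin, had means of 12.95 in Combination, 13.11 in Cabozantinib, 13.12 in Anti-PD1 and 13.17 in Placebo, far above the array medians. Cabozantinib replicates 1 and 2 stood lowest of all tumours for the genes described here.

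Mean signals of most of the T cell and cytotoxic genes were highest in a group that had received the antibody. The Anti-PD1 mean was the highest of the 4 for 27 of the 40 genes and the Combination mean for 10, while the Cabozantinib mean was the highest for 1 and the Placebo mean for 2. The lowest mean was that of Cabozantinib for 24 genes and that of Placebo for 14. Single tumours weigh on this count, since Cabozantinib replicate 2 was the lowest of the 16 tumours for 28 genes and replicate 1 for 6. In 34 of the 40 genes both antibody groups had higher means than both groups without it. The order Anti-PD1, Combination, Placebo, Cabozantinib held for 18 genes.

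**Figure D1:**
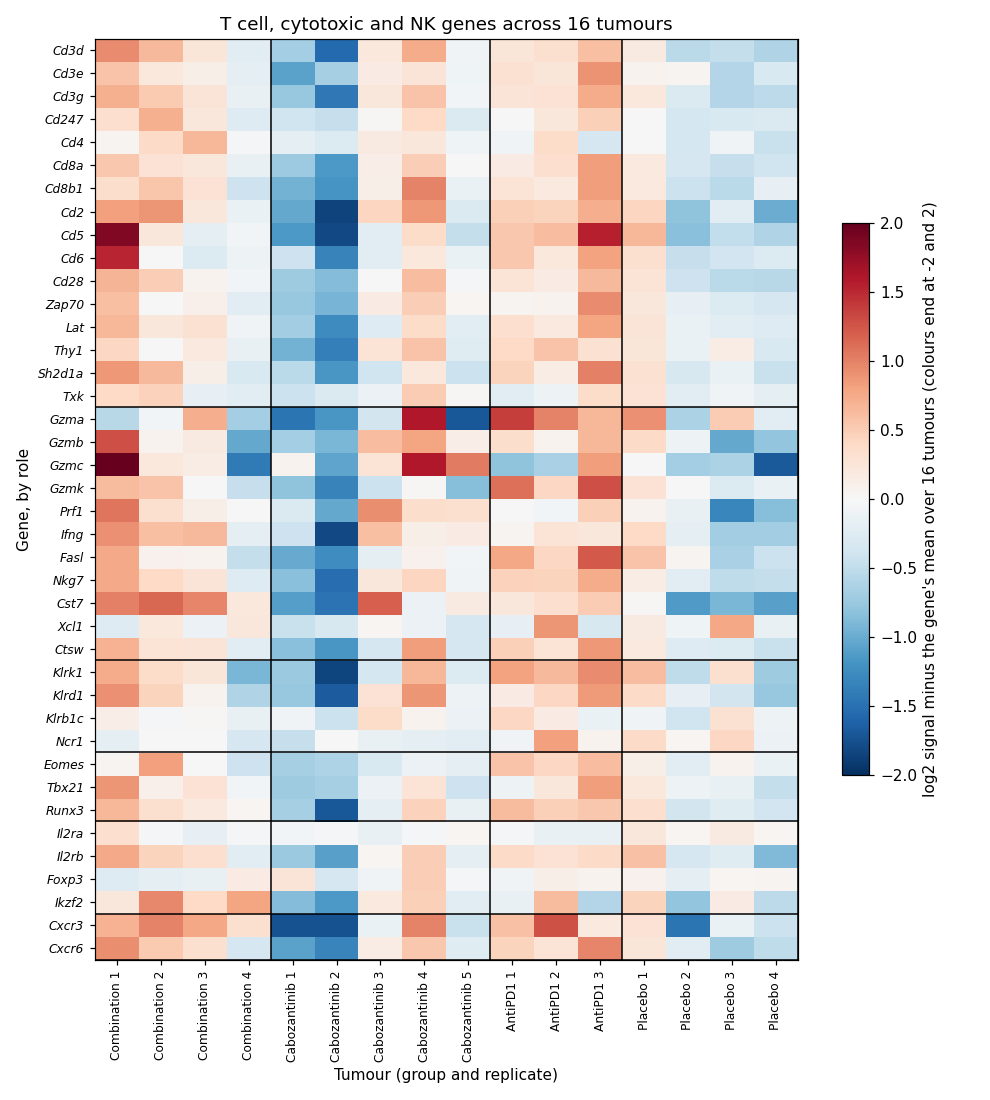
Log2 signal of each of the 40 genes (rows, by role) in each of the 16 tumours (columns, by group), as the deviation from the gene's mean over all tumours, with colours ending at -2 and 2. Cabozantinib replicates 1 and 2 are blue for nearly all genes, and the Combination and Anti-PD1 columns are mostly red apart from Combination replicate 4.

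Averaged over cabozantinib, the antibody raised 9 of the 40 genes and lowered none (limma, adjusted p under 0.05, 7 tumours with the antibody against 9 without). That is 22.5% of them, against 8.33% of all 17097 genes called higher in the same comparison. The 40 genes were chosen with earlier results of these data known, so the shares describe the list and are not a test of it. The 9 were Gzmk, Eomes, Sh2d1a, Cst7, Cxcr3, Cd5, Lat, Runx3 and Fasl. The estimate was positive for 38 of 40 genes with a median log2 difference of 0.59, against 41.3% of all genes and a median of -0.03. At an unadjusted p under 0.05, 23 of the 40 were higher, against 14% of all genes. Without the 3 muscle-high tumours 19 of the 40 rose, where 4.74% of all genes were called higher. Those 3 include Cabozantinib replicate 4, the highest tumour without the antibody for these genes (median deviation 0.47 from each gene's mean). Combination replicate 4, the lowest with the antibody (-0.18), is another. With a skeletal muscle score (defined below) as a covariate 5 rose, where 7.69% of all genes did. Other fits described below gave from 0 to 25. Each comparison between 2 groups alone gave fewer calls than 9.

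Combination against Placebo raised 1 of the 40 genes, Cst7, where 3.71% of all genes were called higher, and 5 genes were higher at an unadjusted p under 0.05, a share near the 11.6% of all genes. The median log2 difference was 0.47 over the 40 genes and -0.02 over all genes, and 35 of 40 were positive. Anti-PD1 against Placebo called none of the 40, where 0.0292% of all genes were called, with 10 at an unadjusted p under 0.05, 9 of them higher (8.42% of all genes were), and the lowest adjusted p at 0.161 for Gzmk in the limma fit. Its median was 0.68, with 38 of 40 positive. Combination against Cabozantinib called none, where 0.00585% of all genes were called, with 10 higher at an unadjusted p under 0.05 (9.91% of all genes were), a lowest adjusted p of 0.101 for Gzmk by limma, and 39 of 40 estimates positive around a median of 0.54. Combination and Anti-PD1 were set against the same Placebo tumours, so their values are not independent.

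All 3 Anti-PD1 tumours lay above all 4 Placebo tumours for 14 of the 40 genes, against 9.22% of all genes, and the 14 include Cd3d, Cd3e, Cd3g, Cd8b1, Cd2, Gzmk, Nkg7, Cst7 and Runx3. All 4 Combination tumours lay above all 4 Placebo tumours for 2 genes, Cst7 and Cxcr3, against 7.94% of all genes. Il2ra, with a signal below the yardstick in every tumour, was the 1 gene with all 3 Anti-PD1 tumours below all Placebo tumours. The share of all genes apart in that direction is not given here, so no result is read from it.

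**Figure D2:**
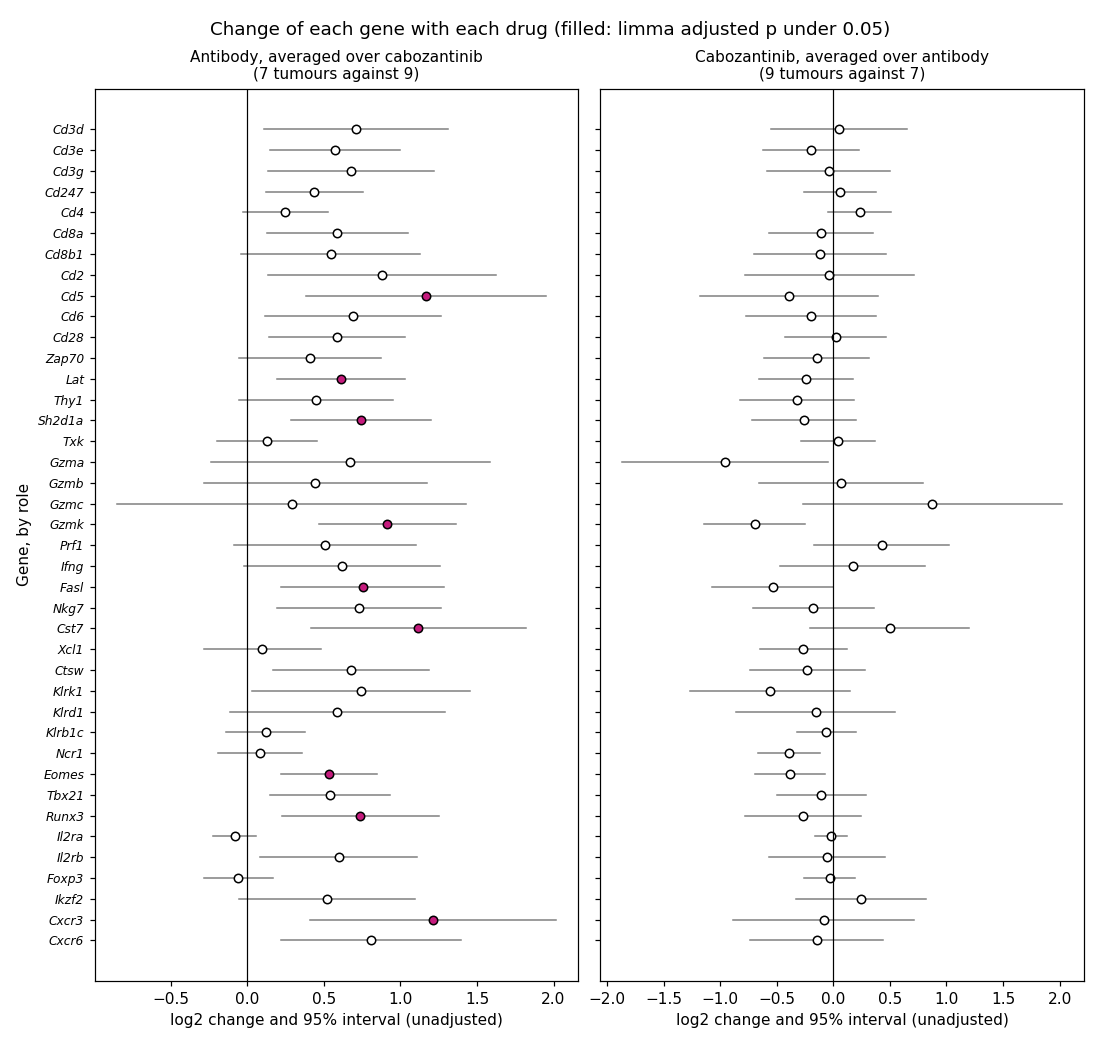
Log2 difference of each gene with its unadjusted 95% interval, for the antibody averaged over cabozantinib (left, 7 tumours with and 9 without) and for cabozantinib averaged over the antibody (right, 9 tumours with and 7 without), from the limma fit over all genes. Filled points passed an adjusted p of 0.05, and all 9 of them are on the left panel, above 0.

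The CD3 chains, which anchor the T cell receptor complex, had positive antibody estimates that did not pass the test. Cd3e had log2 signals of 8.35, 7.98, 7.89 and 7.59 in the Combination tumours, 6.69, 7.10, 7.93, 8.02 and 7.67 in the Cabozantinib tumours, 8.08, 8.01 and 8.67 in the Anti-PD1 tumours, and 7.84, 7.82, 7.18 and 7.46 in the Placebo tumours. All Anti-PD1 tumours were above all Placebo tumours, and the Cabozantinib range enclosed the Placebo range, with its replicates 1 and 2 lowest. Cd3g, another chain of the complex, had 10.31, 10.12, 9.86 and 9.44 in the Combination tumours, 8.83, 8.16, 9.82, 10.17 and 9.54 in the Cabozantinib tumours, 9.85, 9.88 and 10.33 in the Anti-PD1 tumours, and 9.80, 9.30, 8.998 and 9.07 in the Placebo tumours. Here too Cabozantinib spread beyond Placebo on both sides, and Combination replicate 4 lay among Placebo values. The antibody effect averaged over cabozantinib was 0.57 ± 0.20 for Cd3e (SE, interval 0.15 to 0.997, adjusted p = 0.0587 in limma) and 0.68 ± 0.25 for Cd3g (adjusted p = 0.0759). Cd3d gave 0.71 (adjusted p = 0.0888) and Cd247, the zeta chain, 0.44 (adjusted p = 0.0541).

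Neither coreceptor passed the test. Cd8a, the alpha chain of the coreceptor of cytotoxic T cells, had 9.13, 8.87, 8.81 and 8.43 in the Combination tumours, 7.86, 7.43, 8.72, 9.07 and 8.58 in the Cabozantinib tumours, 8.74, 8.92 and 9.42 in the Anti-PD1 tumours, and 8.78, 8.25, 8.11 and 8.19 in the Placebo tumours. Cabozantinib replicates 1 and 2 were lowest, and Placebo replicate 1 overlapped the antibody-treated tumours. Cd4, the helper coreceptor, had 5.44, 5.78, 6.05 and 5.35 in the Combination tumours, 5.20, 5.11, 5.57, 5.62 and 5.31 in the Cabozantinib tumours, 5.33, 5.76 and 5.06 in the Anti-PD1 tumours, and 5.39, 5.05, 5.32 and 4.95 in the Placebo tumours. All 4 groups overlapped, and Combination replicates 2 and 3 were the highest of the 16, followed by Anti-PD1 replicate 2. The antibody effect was 0.59 ± 0.22 for Cd8a (adjusted p = 0.0699 in limma), 0.54 ± 0.27 for Cd8b1 (adjusted p = 0.179) and 0.25 ± 0.13 for Cd4 (adjusted p = 0.195). In Combination against Placebo, Cd4 had the largest test statistic among the receptor genes, with a difference of 0.48 that did not pass (adjusted p = 0.0959 in limma).

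Among the receptor and signalling genes, Cd5, Lat and Sh2d1a rose with the antibody. Cd5, a surface receptor that dampens T cell receptor signals, had 7.82, 6.20, 5.79 and 5.91 in the Combination tumours, 4.82, 4.15, 5.75, 6.33 and 5.48 in the Cabozantinib tumours, 6.50, 6.58 and 7.51 in the Anti-PD1 tumours, and 6.63, 5.13, 5.47 and 5.37 in the Placebo tumours. Combination replicate 1 and Anti-PD1 replicate 3 stood highest, Cabozantinib replicates 1 and 2 were below the dim-gene yardstick, and Placebo replicate 1 overlapped the antibody-treated tumours. The antibody effect was 1.17 ± 0.37 (interval 0.38 to 1.95, adjusted p = 0.041 in limma, 2.25-fold), and all 7 antibody-treated tumours were above the median of the other 9. Lat, the adaptor that Zap70 phosphorylates, had 8.11, 7.67, 7.76 and 7.37 in the Combination tumours, 6.75, 6.19, 7.19, 7.81 and 7.21 in the Cabozantinib tumours, 7.78, 7.64 and 8.23 in the Anti-PD1 tumours, and 7.70, 7.32, 7.22 and 7.18 in the Placebo tumours. Its Combination and Anti-PD1 tumours all exceeded Placebo replicates 2, 3 and 4 and overlapped with replicate 1. The Lat effect was 0.61 ± 0.20 (adjusted p = 0.0434 in limma).

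Sh2d1a, the adaptor SAP of SLAM family receptors, had 6.50, 6.27, 5.75 and 5.32 in the Combination tumours, 5.09, 4.47, 5.23, 5.84 and 5.20 in the Cabozantinib tumours, 6.08, 5.78 and 6.64 in the Anti-PD1 tumours, and 5.94, 5.31, 5.49 and 5.18 in the Placebo tumours. A total of 4 of the 7 antibody-treated tumours were above every other tumour, with Combination replicate 4 the lowest of the 7. Its effect was 0.74 ± 0.21 (adjusted p = 0.0305 in limma), the lowest adjusted p of the receptor group. The other 13 receptor genes had positive estimates from 0.13 for Txk, a Tec family kinase, to 0.88 for Cd2, an adhesion receptor, and none passed. Adjusted p was 0.0637 for the costimulatory receptor Cd28, 0.0845 for Cd6, a relative of Cd5, 0.207 for Zap70 and 0.199 for Thy1, a glycoprotein of the T cell surface (limma).

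Gzmk, Cst7 and Fasl rose with the antibody among the 11 killing and effector genes, and the other 8 did not pass. Gzmk, a tryptase-type granzyme, had 8.23, 8.16, 7.60 and 7.14 in the Combination tumours, 6.79, 6.26, 7.16, 7.61 and 6.74 in the Cabozantinib tumours, 8.69, 8.002 and 8.88 in the Anti-PD1 tumours, and 7.88, 7.59, 7.33 and 7.45 in the Placebo tumours. All 3 Anti-PD1 tumours were above every tumour without the antibody, while Combination replicates 3 and 4 overlapped with Placebo and Cabozantinib. In all, 5 of 7 antibody-treated tumours exceeded all 9 others. The antibody effect on Gzmk was 0.91 ± 0.21 (interval 0.47 to 1.36, 1.89-fold, adjusted p = 0.0152 in limma), the lowest adjusted p of the 40 genes. Between single groups the difference was 0.96 (adjusted p = 0.161) for Anti-PD1 against Placebo and 0.87 (adjusted p = 0.101) for Combination against Cabozantinib, by limma. Without the 3 muscle-high tumours the last of these was 1.26 (adjusted p = 0.0413).

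Cst7 encodes cystatin F, an inhibitor of the cathepsins that activate granzymes. Its signals were 9.39, 9.53, 9.35 and 8.58 in the Combination tumours, 7.28, 6.90, 9.57, 8.25 and 8.55 in the Cabozantinib tumours, 8.60, 8.71 and 8.88 in the Anti-PD1 tumours, and 8.40, 7.24, 7.46 and 7.28 in the Placebo tumours. The Combination and Anti-PD1 tumours were all above all Placebo tumours, and Cabozantinib held the highest tumour of the series, replicate 3, beside the lowest, replicate 2. Cst7 was the 1 gene called in Combination against Placebo, with a difference of 1.616 ± 0.46 (interval 0.64 to 2.59, 3.06-fold, adjusted p = 0.0407 in limma). The antibody effect averaged over cabozantinib was 1.12 ± 0.33 (adjusted p = 0.0326). Without the 3 muscle-high tumours neither was called, at 1.82 (adjusted p = 0.0542) and 1.25 (adjusted p = 0.0655), and Cd247 became the gene called in Combination against Placebo (0.66, adjusted p = 0.0337 in limma). Combination against Cabozantinib gave 1.10 (adjusted p = 0.153), and 1.47 without Cabozantinib replicate 3 (adjusted p = 0.0238 in limma). With the pan-leukocyte score described below as a covariate, the Cst7 difference between Combination and Placebo was 0.73 (adjusted p = 0.1675 in limma). Which cells carried the Cst7 signal was not tested. Fasl, the ligand that triggers death through Fas, had 7.36, 6.69, 6.67 and 6.12 in the Combination tumours, 5.59, 5.36, 6.42, 6.68 and 6.55 in the Cabozantinib tumours, 7.38, 7.02 and 7.82 in the Anti-PD1 tumours, and 7.18, 6.66, 5.96 and 6.17 in the Placebo tumours. Anti-PD1 replicates 1 and 3 exceeded all tumours without the antibody, Combination overlapped with every group, and the effect was 0.75 ± 0.25 (adjusted p = 0.0495 in limma).

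Gzmb, Prf1 and Ifng did not pass the test with the antibody. Gzmb, the granzyme that cleaves caspases, had 11.15, 9.92, 10.02 and 8.83 in the Combination tumours, 9.17, 8.94, 10.47, 10.63 and 9.99 in the Cabozantinib tumours, 10.21, 9.92 and 10.51 in the Anti-PD1 tumours, and 10.24, 9.75, 8.82 and 9.06 in the Placebo tumours. Combination held both the highest tumour and 1 near the lowest, and all groups overlapped. Prf1, the pore-forming perforin, had 8.49, 7.75, 7.54 and 7.44 in the Combination tumours, 7.13, 6.40, 8.36, 7.77 and 7.74 in the Cabozantinib tumours, 7.43, 7.37 and 7.89 in the Anti-PD1 tumours, and 7.50, 7.28, 6.12 and 6.57 in the Placebo tumours. Placebo replicates 3 and 4 and Cabozantinib replicate 2 were lowest, and Cabozantinib replicate 3 was close to the highest, Combination replicate 1. Its second probe set had means of 4.91 in Combination, 5.12 in Cabozantinib, 4.92 in Anti-PD1 and 5.11 in Placebo, near the yardstick. Ifng, which encodes interferon gamma, had 7.98, 7.67, 7.71 and 6.88 in the Combination tumours, 6.66, 5.26, 7.67, 7.19 and 7.23 in the Cabozantinib tumours, 7.13, 7.33 and 7.29 in the Anti-PD1 tumours, and 7.47, 6.87, 6.36 and 6.37 in the Placebo tumours. Cabozantinib replicate 2 was the lowest by a wide margin, and the Anti-PD1 tumours lay inside the Placebo range. The antibody effects were 0.44 (adjusted p = 0.395) for Gzmb, 0.51 (adjusted p = 0.217) for Prf1 and 0.62 (adjusted p = 0.166) for Ifng in limma.

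Nkg7, a membrane protein of cytotoxic granules, had 10.56, 10.20, 10.06 and 9.54 in the Combination tumours, 8.96, 8.28, 10.03, 10.23 and 9.72 in the Cabozantinib tumours, 10.26, 10.24 and 10.54 in the Anti-PD1 tumours, and 9.94, 9.59, 9.29 and 9.33 in the Placebo tumours. All Anti-PD1 tumours exceeded all Placebo and Cabozantinib tumours, and the effect missed the threshold at 0.73 ± 0.25 (adjusted p = 0.0575 in limma). Gzma, the tryptase-type granzyme beside Gzmk on chromosome 13, had 6.85, 7.35, 8.14 and 6.73 in the Combination tumours, 5.95, 6.24, 7.04, 9.01 and 5.72 in the Cabozantinib tumours, 8.78, 8.40 and 8.06 in the Anti-PD1 tumours, and 8.31, 6.77, 7.91 and 7.20 in the Placebo tumours. Cabozantinib replicate 4 was the highest of the 16 and replicate 5 the lowest, and the effect was 0.67 ± 0.43 (adjusted p = 0.293). Gzmc, a granzyme of activated cytotoxic cells whose close paralogs may share probe signal, had a wide interval of -0.85 to 1.43. Ctsw, the lymphocyte protease cathepsin W, gave 0.68 (adjusted p = 0.0608), and Xcl1, a chemokine that draws cross-presenting dendritic cells, 0.10 (adjusted p = 0.749).

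The 4 NK receptors gave no calls in any of the 8 comparisons. Klrk1, the activating receptor NKG2D that CD8 T cells also carry, had 8.67, 8.29, 8.17 and 7.01 in the Combination tumours, 7.19, 6.09, 7.57, 8.60 and 7.66 in the Cabozantinib tumours, 8.73, 8.57 and 8.88 in the Anti-PD1 tumours, and 8.54, 7.42, 8.25 and 7.21 in the Placebo tumours. All Anti-PD1 tumours exceeded all Placebo tumours, Cabozantinib replicate 4 reached into their range, and Combination replicate 4 was the lowest antibody-treated tumour. The effect was 0.74 ± 0.33 (adjusted p = 0.131 in limma), and that on Klrd1, the CD94 subunit shared with CD8 T cells, was 0.59 ± 0.33 (adjusted p = 0.229). Ncr1, the NK receptor NKp46, had 4.14, 4.31, 4.32 and 3.99 in the Combination tumours, 3.86, 4.34, 4.17, 4.14 and 4.10 in the Cabozantinib tumours, 4.26, 5.15 and 4.39 in the Anti-PD1 tumours, and 4.70, 4.36, 4.74 and 4.21 in the Placebo tumours. Its values were below the yardstick in all tumours except Anti-PD1 replicate 2, and the effect was 0.08 ± 0.13 (adjusted p = 0.706). Klrb1c, which encodes NK1.1, had 4.73, 4.58, 4.63 and 4.45 in the Combination tumours, 4.54, 4.17, 4.97, 4.67 and 4.49 in the Cabozantinib tumours, 5.01, 4.77 and 4.46 in the Anti-PD1 tumours, and 4.54, 4.21, 4.91 and 4.496 in the Placebo tumours. Its groups overlapped, mostly below the yardstick, with an effect of 0.12 ± 0.12 (adjusted p = 0.537 in limma). Both defining NK markers were dim on these arrays.

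Of the lineage factors, 2 of 3 rose with the antibody. Eomes, a T-box factor of effector and memory CD8 T cells and NK cells, had 6.32, 7.09, 6.27 and 5.86 in the Combination tumours, 5.61, 5.65, 5.98, 6.16 and 6.08 in the Cabozantinib tumours, 6.84, 6.70 and 6.90 in the Anti-PD1 tumours, and 6.39, 6.06, 6.35 and 6.14 in the Placebo tumours. The 3 Anti-PD1 tumours and Combination replicate 2 exceeded all 9 tumours without the antibody, and Combination replicate 4 was the lowest antibody-treated tumour. The effect was 0.53 ± 0.15 (interval 0.22 to 0.84, adjusted p = 0.0255 in limma). Runx3, the Runt factor that specifies the CD8 lineage, had 7.89, 7.54, 7.41 and 7.25 in the Combination tumours, 6.55, 5.52, 7.02, 7.67 and 7.07 in the Cabozantinib tumours, 7.86, 7.70 and 7.75 in the Anti-PD1 tumours, and 7.56, 6.85, 6.97 and 6.84 in the Placebo tumours. All antibody-treated tumours were above Placebo replicates 2, 3 and 4, and Cabozantinib replicate 2 was the lowest. The effect was 0.74 ± 0.24 (adjusted p = 0.0463 in limma). The second probe set of Runx3 was below the yardstick, with means of 4.28 in Combination, 4.17 in Cabozantinib, 4.16 in Anti-PD1 and 4.17 in Placebo. Tbx21, which encodes T-bet, the T-box factor that drives Ifng, had 6.20, 5.42, 5.61 and 5.26 in the Combination tumours, 4.61, 4.66, 5.20, 5.59 and 4.90 in the Cabozantinib tumours, 5.21, 5.55 and 6.15 in the Anti-PD1 tumours, and 5.52, 5.21, 5.18 and 4.85 in the Placebo tumours. Its antibody-treated tumours overlapped with Placebo, and the effect missed the threshold at 0.54 ± 0.18 (adjusted p = 0.0544 in limma).

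No regulatory or IL2 receptor gene passed the test in any comparison. Foxp3, the defining factor of regulatory T cells, had 4.48, 4.56, 4.59 and 4.90 in the Combination tumours, 4.99, 4.40, 4.66, 5.23 and 4.71 in the Cabozantinib tumours, 4.67, 4.84 and 4.80 in the Anti-PD1 tumours, and 4.81, 4.54, 4.77 and 4.79 in the Placebo tumours. All groups overlapped and most tumours were below the yardstick, with an antibody effect of -0.06 ± 0.11 (interval -0.29 to 0.17, adjusted p = 0.737 in limma). Il2ra, the alpha chain CD25 that regulatory and activated T cells carry, had 4.80, 4.42, 4.298 and 4.42 in the Combination tumours, 4.41, 4.42, 4.32, 4.44 and 4.51 in the Cabozantinib tumours, 4.44, 4.32 and 4.32 in the Anti-PD1 tumours, and 4.70, 4.503, 4.65 and 4.51 in the Placebo tumours. Its values lay below the yardstick in every tumour, and Combination replicate 1 was the highest of all. The difference of Anti-PD1 from Placebo was -0.23 and did not pass (adjusted p = 0.234 in limma). Il2rb, the beta chain through which CD8 T cells and NK cells respond to IL2 and IL15, had 8.74, 8.44, 8.33 and 7.78 in the Combination tumours, 7.25, 6.90, 8.03, 8.49 and 7.81 in the Cabozantinib tumours, 8.37, 8.28 and 8.37 in the Anti-PD1 tumours, and 8.58, 7.66, 7.76 and 7.12 in the Placebo tumours. Its Placebo range enclosed the Anti-PD1 values, and the effect was 0.60 ± 0.24 (adjusted p = 0.0937 in limma). Ikzf2, the factor Helios, had 7.45, 8.19, 7.63 and 8.01 in the Combination tumours, 6.37, 6.08, 7.43, 7.71 and 7.02 in the Cabozantinib tumours, 7.08, 7.86 and 6.64 in the Anti-PD1 tumours, and 7.67, 6.44, 7.40 and 6.70 in the Placebo tumours. Combination replicates 2 and 4 were the highest, and Cabozantinib replicates 1 and 2 the lowest. The largest difference of Ikzf2 was Combination against Cabozantinib at 0.90 ± 0.36 (adjusted p = 0.153), and against Placebo it was 0.77 ± 0.37 (adjusted p = 0.188 in limma).

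Cxcr3, the receptor for interferon-induced chemokines that draws activated T cells into tissue, had the largest antibody estimate of the 40 genes. Its signals were 7.04, 7.34, 7.12 and 6.67 in the Combination tumours, 4.61, 4.61, 6.21, 7.34 and 5.90 in the Cabozantinib tumours, 6.93, 7.63 and 6.54 in the Anti-PD1 tumours, and 6.63, 4.90, 6.22 and 5.92 in the Placebo tumours. All 4 Combination tumours were above all Placebo tumours, Cabozantinib replicates 1 and 2 and Placebo replicate 2 were below the yardstick, and Anti-PD1 replicate 3 lay below Placebo replicate 1. The effect was 1.21 ± 0.38 (interval 0.41 to 2.02, 2.32-fold, adjusted p = 0.0392 in limma). Cxcr6, a chemokine receptor of effector and tissue-resident T cells, had 10.14, 9.73, 9.53 and 8.87 in the Combination tumours, 8.13, 7.88, 9.35, 9.75 and 8.96 in the Cabozantinib tumours, 9.64, 9.48 and 10.19 in the Anti-PD1 tumours, and 9.45, 8.999, 8.49 and 8.70 in the Placebo tumours. Its Anti-PD1 tumours were above all Placebo tumours, and the effect missed the threshold at 0.81 ± 0.27 (adjusted p = 0.0545).

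**Figure D3:**
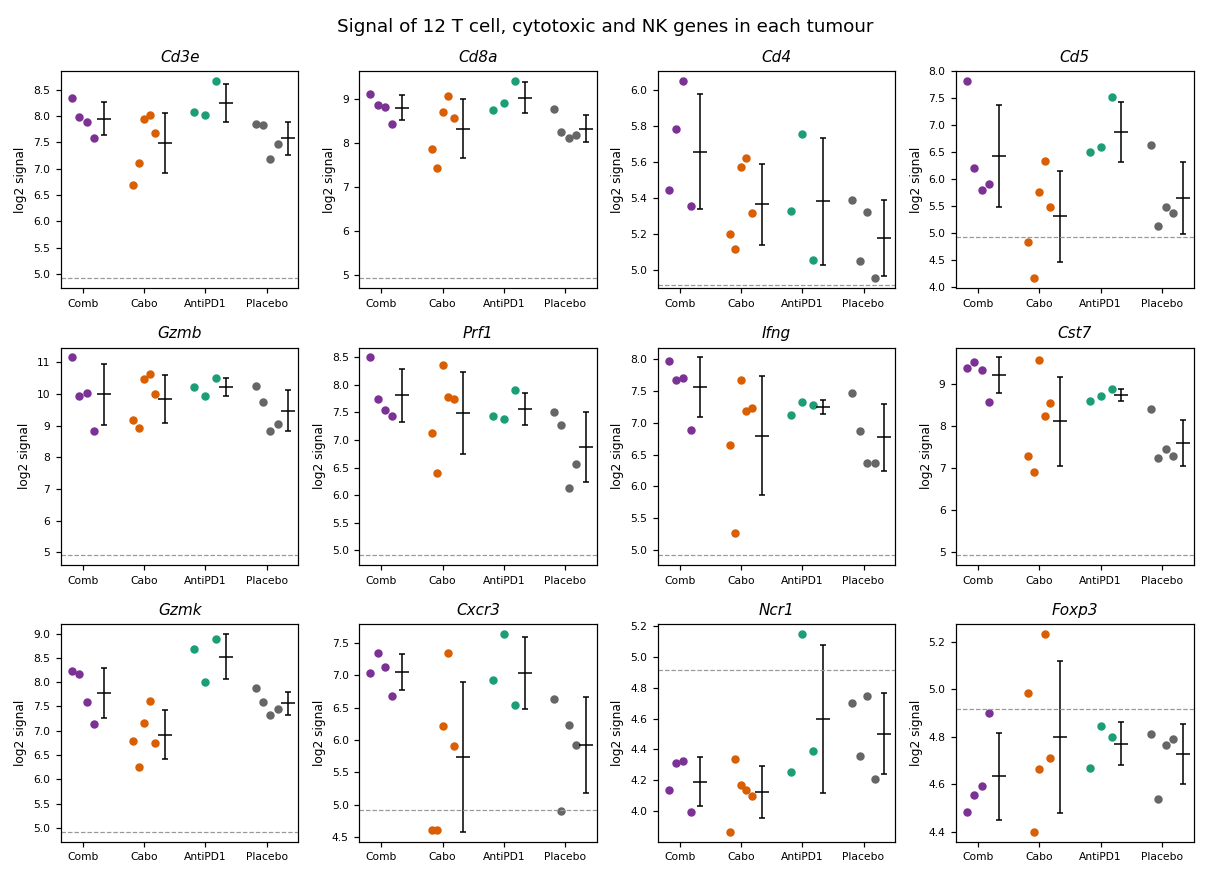
Log2 signal of 12 of the genes in each tumour (points), with the mean and SD of each group (bars), in the order Combination (Comb), Cabozantinib (Cabo), Anti-PD1 and Placebo. The dashed line marks the lowest array median (4.92). Gzmk shows the 3 Anti-PD1 tumours above every tumour of the Cabozantinib and Placebo groups, and Ncr1 and Foxp3 lie mostly under the line.

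Cabozantinib did not lower or raise any of the 40 genes past the threshold. Averaged over the antibody, none was called, where 2.12% of all genes were, with 5 lower at an unadjusted p under 0.05, against 8.88% of all genes, and a lowest adjusted p of 0.105 for Gzmk (limma, 9 tumours with cabozantinib against 7 without). Cabozantinib against Placebo called none, where 0.257% of all genes were called, with 2 at an unadjusted p under 0.05, both lower, where 7.07% of all genes were lower. Combination against Anti-PD1 called none, where 0.234% of all genes were called, with 1 lower at an unadjusted p under 0.05, where 3.94% of all genes were lower. The median difference averaged over the antibody was -0.11 over the 40 genes and 0.0008 over all genes.

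Within the killing genes the cabozantinib estimates ran in both directions. Gzmk was -0.70 ± 0.21 (interval -1.14 to -0.25, adjusted p = 0.105) and Gzma -0.95 ± 0.43 (interval -1.86 to -0.04, adjusted p = 0.286). By contrast Gzmc was 0.88 ± 0.53 (adjusted p = 0.453), Cst7 0.50 ± 0.33 (adjusted p = 0.495) and Prf1 0.43 ± 0.28 (adjusted p = 0.489), all by limma. Gzmk ranged from 6.26 through a median of 7.16 to 8.23 in the 9 tumours given cabozantinib, against 7.33, 7.88 and 8.88 in the 7 others. Ncr1 was lower in all 9 cabozantinib-treated tumours than the median of the 7 others, at -0.39 ± 0.13 (adjusted p = 0.129), with signals below the yardstick. Eomes was -0.38 ± 0.15 (adjusted p = 0.202) and Fasl -0.53 ± 0.25 (adjusted p = 0.309). Gzmk was called lower with array weights and without the 3 muscle-high tumours, where the difference was -0.81 (adjusted p = 0.0305 in limma). With the pan-leukocyte score as a covariate, Gzmk was called lower (-0.65, adjusted p = 0.0302) and Cst7 higher (0.59, adjusted p = 0.047). Gzma was called lower without Cabozantinib replicate 4 (-1.23, adjusted p = 0.0392), and Eomes without Combination replicate 2 (-0.50, adjusted p = 0.0352).

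No difference in the antibody effect with and without cabozantinib passed the test. The interaction, Combination minus Cabozantinib set against Anti-PD1 minus Placebo, called none of the 40 genes and 0% of all genes (limma), with 1 of 40 higher at an unadjusted p under 0.05, against 1.16% of all genes. That gene was the dim Il2ra, at 0.29 ± 0.13 with an adjusted p of 1.0. The interaction of Gzmk was -0.09 ± 0.42 (interval -0.99 to 0.80) and that of Cst7 -0.03 ± 0.66 (interval -1.44 to 1.37). Intervals of this width do not show that the effects were alike.

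Tumours given the same treatment differed widely in these genes. Cabozantinib replicate 2 was the lowest of the 16 tumours for 28 of the 40 genes, with a median deviation of -1.16 from each gene's mean, and replicate 1 was the lowest for 6. Cabozantinib replicate 4, by contrast, had a median deviation of 0.47. Combination replicate 1 was the highest for 14 genes (median deviation 0.68), and Anti-PD1 replicate 3 for 11 (0.66). Combination replicate 4 had -0.18, below Placebo replicate 1 at 0.25.

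With group means removed, 8 pairs of genes were compared across the 16 tumours by permutation within groups (100000 permutations, two-sided, adjusted over the 8 pairs). Cd3e and Cd8a varied together, with Pearson r = 0.869 (p = 0.00107, adjusted p = 0.00285) and Spearman rho = 0.926 (p = 6e-05, adjusted p = 0.0002), and r was 0.858 without the 2 tumours farthest from the Cd3e median. Cd8a with Gzmb had r = 0.853 (p = 4e-05, adjusted p = 0.0003) and rho = 0.903 (p = 6e-05, adjusted p = 0.0002), and r = 0.843 without the 2 farthest. Cd8a with Ifng had r = 0.857 (p = 0.0009, adjusted p = 0.00285), rho = 0.835 (p = 0.00116, adjusted p = 0.00309) and then r = 0.816. These 3 pairs kept their relation without those tumours. Cd3e with Cd4 had r = 0.165 (p = 0.56, adjusted p = 0.746), rho = 0.188 (p = 0.511, adjusted p = 0.584) and r = -0.0405 without the 2 farthest. The dim pairs gave r = -0.0833 for Foxp3 with Il2ra (p = 0.756, adjusted p = 0.756; rho = 0.0529, p = 0.865, adjusted p = 0.865) and r = 0.122 for Ncr1 with Klrb1c (p = 0.714, adjusted p = 0.756; rho = 0.206, p = 0.505, adjusted p = 0.584). Without the 2 farthest tumours these were -0.175 and 0.316.

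Relations of Cd3e with a gene of all leukocytes, T cells included, and with a myeloid gene did not pass. Cd3e with Ptprc, the CD45 gene of all leukocytes, had r = 0.679 within groups (permutation p = 0.0506, adjusted p = 0.101; rho = 0.562, p = 0.088, adjusted p = 0.141), and 0.518 without the 2 farthest tumours. Cd3e with Itgam, a myeloid integrin, had r = 0.551 (permutation p = 0.0821, adjusted p = 0.131; rho = 0.562, p = 0.0704, adjusted p = 0.141), and then 0.464.

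A wider list of 63 other T and NK cell genes, of which 53 were measured, also held genes that rose with the antibody. Averaged over cabozantinib, 14 of the 53 rose and none fell (limma), which is 26.4% of the list against 8.33% of all genes. This list too was chosen with earlier results of these data known, so the share is a description and no independent evidence. The largest 4 were Tyrobp (1.12, adjusted p = 0.019), Fyn (1.12, adjusted p = 0.0171), Fcer1g (1.06, adjusted p = 0.0276) and Lcp2 (1.01, adjusted p = 0.0284). Fyn is a kinase and Lcp2 an adaptor of T cell receptor signalling. Tyrobp and Fcer1g encode signalling adaptors that NK cells share with myeloid cells, and 5 of 5 macrophage genes also rose in this comparison. Which cells carried the signals of the 14 genes was not tested. In Combination against Placebo 3 rose (5.66%, near the 3.71% of all genes called higher), the chemokine gene Ccl4 (0.97), Gata3 (0.36) and Lef1 (0.31), and Itgae, the CD103 integrin chain of tissue-resident T cells, fell (-0.56, adjusted p = 0.036 in limma), where 6.64% of all genes were called lower. With cabozantinib averaged over the antibody, 3 of the 53 fell (5.66%, against 1.26% of all genes called lower), namely S1pr1 (-0.75), the receptor for lymphocyte exit that endothelium also carries, Itgae (-0.48) and Klra8 (-0.47), an NK receptor.

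Markers of other cells moved with the antibody beside the T cell genes. With the antibody averaged over cabozantinib, where 8.33% of all genes were called higher, 3 of 5 pan-leukocyte and 2 of 4 measured B cell genes rose. So did 5 of 5 macrophage genes and 3 of 3 Y-linked genes, while 0 of 6 muscle genes and 0 of 5 hepatoma genes passed. A score was made for each list, the average log2 distance of its genes from the series mean. The pan-leukocyte score was 0.45 ± 0.24 in Combination, -0.42 ± 0.78 in Cabozantinib, 0.44 ± 0.06 in Anti-PD1 and -0.26 ± 0.34 in Placebo (SD). It ranged over 0.12 to 0.69 in Combination, -1.50 to 0.30 in Cabozantinib, 0.39 to 0.51 in Anti-PD1 and -0.54 to 0.18 in Placebo. The macrophage score was 0.92 ± 0.37 in Combination, -0.54 ± 1.05 in Cabozantinib, 0.70 ± 0.26 in Anti-PD1 and -0.77 ± 0.68 in Placebo, and it ranged over 0.45 to 1.33 in Combination, -2.08 to 0.62 in Cabozantinib, 0.41 to 0.93 in Anti-PD1 and -1.70 to -0.18 in Placebo. The Y-linked score was 0.54 ± 0.33 in Combination, -0.47 ± 0.52 in Cabozantinib, 0.58 ± 0.17 in Anti-PD1 and -0.39 ± 0.50 in Placebo, and it ranged over 0.25 to 1.003 in Combination, -1.02 to 0.15 in Cabozantinib, 0.42 to 0.77 in Anti-PD1 and -0.89 to 0.09 in Placebo. The macrophage differences ran from 1.16 for Csf1r to 1.75 for Adgre1, and that of Itgam was 1.63 (adjusted p = 0.0194). In Combination against Placebo, 3.71% of all genes were called higher. Of the lists, 3 of the 5 macrophage, 1 of the 5 pan-leukocyte, 1 of the 4 B cell and 2 of the 3 Y-linked genes rose there. In that comparison all 5 hepatoma genes had negative estimates, and 1 fell, Alb (-0.22, adjusted p = 0.0361 in limma). Of all genes, 6.64% were called lower there. Ttr, which encodes transthyretin, averaged 7.94 ± 1.86 in Combination and 10.17 ± 0.73 in Placebo (SD), with overlap and an adjusted p of 0.0782 in limma. The hepatoma score was -0.53 ± 0.54 in Combination, 0.20 ± 0.45 in Cabozantinib, 0.02 ± 0.22 in Anti-PD1 and 0.27 ± 0.34 in Placebo. It ranged over -0.88 to 0.26 in Combination, -0.35 to 0.62 in Cabozantinib, -0.14 to 0.27 in Anti-PD1 and -0.12 to 0.67 in Placebo. Muscle scores reached 5.72 in Combination, 4.49 in Cabozantinib and 4.96 in Anti-PD1, against 0.73 in Placebo, and Cabozantinib replicate 3 had 2.33. The part of these markers in the T cell results was not tested.

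**Figure D4:**
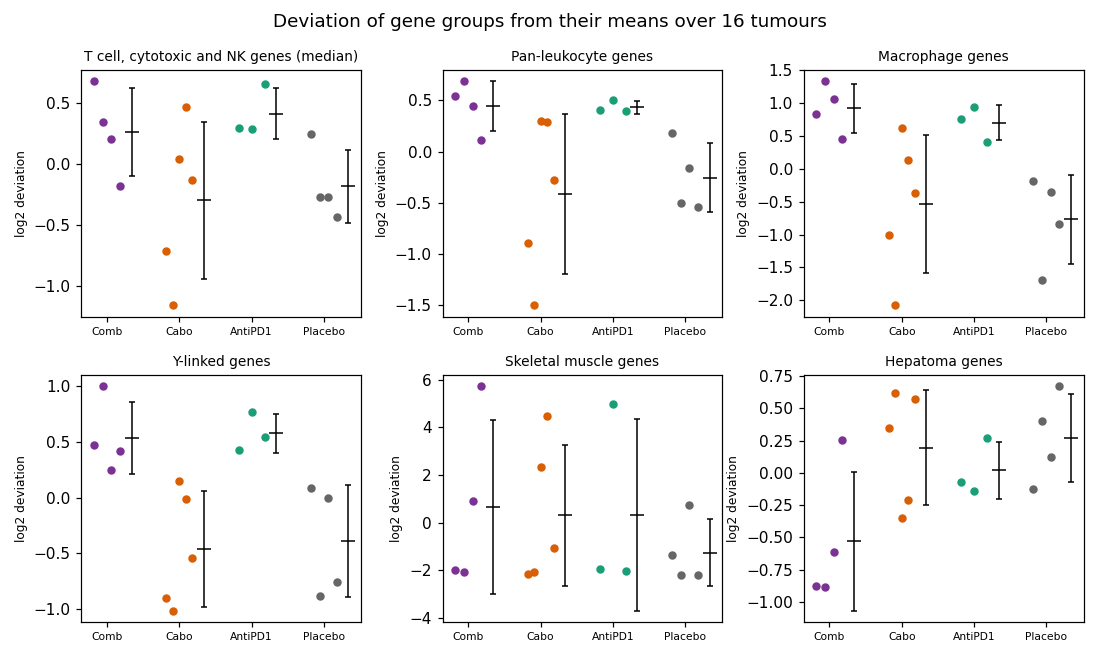
Log2 deviation of 6 gene groups from the series mean for each tumour (points) with the mean and SD of each group (bars), in the order Combination (Comb), Cabozantinib (Cabo), Anti-PD1 and Placebo. The T cell, cytotoxic and NK panel shows the median of the 40 genes, and the other panels the mean of their genes. The pan-leukocyte, macrophage and Y-linked panels have their highest means in the antibody-treated groups, and 1 tumour in each of 3 groups is high for muscle.

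The 9 antibody calls were lost with any of 3 covariates in the fit. Cd3e is itself 1 of the 40 genes, so the Cd3e fit adjusts the list by its own member and tests nothing about other cells. The pan-leukocyte genes mark all leukocytes, T cells included, so that fit cannot tell T cells from other leukocytes. With the Cd3e signal, the pan-leukocyte score or the Y-linked score as a covariate, 0 of the 40 genes were called with the antibody, and 0 of all genes (limma). The median antibody difference of the 40 genes was then 0.10 with Cd3e, -0.07 with the pan-leukocyte score and -0.14 with the Y-linked score, against 0.59 without a covariate. Gzmk was 0.47 with Cd3e (adjusted p = 0.236), 0.43 with the pan-leukocyte score (adjusted p = 0.478) and 0.42 with the Y-linked score (adjusted p = 0.888). Each of these covariates had a higher mean in both antibody groups than in both groups without it. The Cd3e and pan-leukocyte fits were added after the data were seen.

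The count also depended on single tumours. Among fits that left out 1 tumour, the count was 1 without Placebo replicate 2, Placebo replicate 4 or Anti-PD1 replicate 2, and 2 without Anti-PD1 replicate 1, Cabozantinib replicate 1 or Combination replicates 1 or 2. It was 3 without Placebo replicate 3 or Anti-PD1 replicate 3, 4 without Cabozantinib replicate 5 or Combination replicate 3, and 6 without Cabozantinib replicate 2. It was 14 without Placebo replicate 1, 15 without Combination replicate 4, 16 without Cabozantinib replicate 3 and 24 without Cabozantinib replicate 4. The share of all genes called higher also varied among these fits. At the low end it was 1.59% without Anti-PD1 replicate 2, 4.18% without Combination replicate 2 and 4.5% without Placebo replicate 2. It was 4.87% without Anti-PD1 replicate 1, 5.1% without Placebo replicate 4, 5.72% without Cabozantinib replicate 1 and 6.21% without Cabozantinib replicate 5. It was 7.05% without Cabozantinib replicate 2, 7.08% without Combination replicate 1 and 7.13% without Combination replicate 3. It was 7.45% without Placebo replicate 3 and 8.11% without Anti-PD1 replicate 3. It was 8.7% without Placebo replicate 1, 8.23% without Combination replicate 4, 11% without Cabozantinib replicate 3 and 10% without Cabozantinib replicate 4. The share called of the genes described here was below that of all genes without Placebo replicates 2 or 4. The same held without Anti-PD1 replicate 3, Cabozantinib replicate 1 or Combination replicate 1. Both shares were close without Placebo replicate 3 or Anti-PD1 replicate 1. In the other fits that left out 1 tumour, the genes described here had the higher share. Gzmk was called in each of these 16 fits and in 25 of the 28 alternatives run, with the Cd3e, pan-leukocyte and Y-linked covariates the exceptions. Eomes was called in 21, Sh2d1a in 17, Cst7 and Cxcr3 in 14, Cd5, Lat and Runx3 in 13, and Fasl in 7. The Cst7 call in Combination against Placebo was kept in 17 of 29 alternatives. It was lost without the 3 muscle-high tumours, with the muscle score or any of the 3 covariates above, and without Placebo replicates 2, 3 or 4, Combination replicates 1, 2 or 3, or Anti-PD1 replicate 1, where adjusted p lay between 0.0548 and 0.131.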

How the data were processed

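Total RNA from 16 frozen tumours was hybridised to 1 Affymetrix array each, from 50 ng per tumour. The deposited series matrix holds log2 values that the authors made with RMA in affy 1.62.0, per the submitters' processing notes; RMA shrinks differences of dim probes. Of 45141 probe sets, 104 were controls, 28898 named 1 gene, 551 several and 15588 none, and 17097 genes were tested. Arrays give no depth, so their number limits the precision. A linear model of 4 group means was fitted to all genes in limma 3.58.1 (R 4.3.3, 12 residual degrees of freedom), with Benjamini-Hochberg adjustment over all genes in each of 8 comparisons and a threshold of 0.05. The script was tested on simulated data. Replicates are numbered in accession order and pair no samples. The 44 genes, roles and other lists were chosen with earlier results of these data known. Per-tumour values are given for a fixed set of genes, every called gene, and the strongest of each role and comparison. Alternatives changed the probe set rule, filter, weights, variance prior, normalization, covariates and samples.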

Additional observations from a re-analysis of the deposited data

Results flagged for a closer look

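Of 120 tests for a sample far from the rest of its group (40 genes in the 3 groups of 4 or 5 tumours), 4 met Dixon's 95% limit, where chance meets it in about 1 of 20 groups. Cd3d, a chain of the T cell receptor complex, had a log2 signal of 9.391 in Placebo replicate 1, against 8.605 to 8.731 in the other 3 Placebo tumours. The costimulatory receptor Cd28 had 6.907 in the same Placebo tumour, against 6.073 to 6.215 in the others. Cd6 had 7.524 in Combination replicate 1, against 5.731 to 6.012 in the other Combination tumours. Foxp3 had 4.538 in Placebo replicate 2, the lowest of its group, against 4.766 to 4.812 in the others, all below the yardstick for dim genes.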

How the results depend on the processing

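For Combination against Placebo, where 1 of the 40 genes was called, 3 were called higher with array weights, as were 1218 of all 17097 genes. The count was 0 with the muscle score (337 of all genes higher), the Y-linked score (0), the Cd3e signal (120) or the pan-leukocyte score (16) as a covariate. Leaving out 1 tumour at a time gave 0 to 1. It was 0 without Placebo replicates 2, 3 or 4, where 14, 146 and 86 of all 17097 genes were called higher. With all tumours 635 were. The count was 1 without Placebo replicate 1, where 732 of all genes were called higher. For Anti-PD1 against Placebo, array weights gave 2 calls (Eomes and Gzmk, higher) in place of 0. The same weights called 873 of the 17097 genes higher, against 3 without them. Combination against Cabozantinib gave 1 in place of 0 with array weights and 1 without the 3 muscle-high tumours (Gzmk, higher, in both). Of all 17097 genes, 720 were called higher with array weights and 21 without those tumours. With 1 tumour left out that comparison gave 0 to 1 (Cst7, without Cabozantinib replicate 3). For cabozantinib averaged over the antibody, 1 gene was called with array weights, 1 without the muscle-high tumours and 2 with the pan-leukocyte score, in place of 0. Those 3 fits called 730, 284 and 857 of all 17097 genes. With 1 tumour left out the count was 0 to 1. The 9 antibody calls averaged over cabozantinib became 16 without genes under the lowest array median, where 15% of fewer genes were called higher. These calls became 25 with array weights (12.3% of all genes higher), 19 without the muscle-high tumours (4.74%) and 5 with the muscle score (7.69%). They became 0 with the Y-linked score, the Cd3e signal or the pan-leukocyte score, where 0 of all genes were called higher. With 1 tumour left out they became 1 to 24, where 1.59% to 11% of all genes were called higher. The cause of these shifts was not tested. Over single genes, with 1 tumour left out or another probe set rule, quantile normalization or centring, 5663 of 6080 values kept their direction and side of the threshold, 88 lost a call and 38 gained one. The other 291, called in neither fit, changed sign, and their median size in the fit of all tumours was 0.059. The largest was Gzmc in Combination against Anti-PD1, 0.618 with all tumours and -0.149 without Combination replicate 1. The titles carry a number, of unstated meaning, that 2 pairs of Anti-PD1 and Placebo tumours, 1 pair of Combination and Cabozantinib tumours and 2 Cabozantinib tumours share. As a random block (correlation -0.103) it gave 8 calls for the antibody and left the other counts as they were. Signal over background limits Klrb1c, Ncr1, Il2ra and Foxp3.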
